A study of Mus musculus with 20 samples.

Results

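Airway ion channels and transporters were followed here in whole mouse tracheas through 10 genes, which were Cftr, Scnn1a, Scnn1b, Scnn1g, Slc12a2, Slc5a8, Slc4a4, Slc26a4, Ano1 (written Tmem16a on the array) and Clca2. Every non-control probe that carried one of these names was taken, which gave 14 of the 41174 probes on the array. A probe was tested when at least 10 of the 20 arrays showed it well above background, and 10 of the 14 probes, from 9 genes, met this. The 20 tracheas came from wild-type (C57/Bl6) and Myd88 knockout (Myd88KO) mice, 10 of each genotype, of which 5 were uninjured and 5 injured. Injured tracheas were collected 3 days after 2% polidocanol, a detergent that strips the tracheal epithelium, and the labels gave an age of 4 months for all mice and no sex. The methods describe male and female mice of a wider age range, and a Myd88KO colony that was backcrossed to C57/Bl6 and then bred apart from the wild-type colony, so that genotype and colony cannot be told apart. Excess connective tissue was removed, but each sample was otherwise the whole trachea, and fewer cells of a type and less RNA per cell cannot be told apart in such samples.

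Myd88 is an adaptor protein through which Toll-like receptors and the interleukin-1 receptor family signal. The airway surface is covered by a thin liquid whose volume and pH depend on salt transport by the epithelium. Sodium is absorbed through the epithelial sodium channel ENaC, which is built from the subunits encoded by Scnn1a, Scnn1b and Scnn1g. Chloride enters the cell from below through the cotransporter Nkcc1 (Slc12a2) and leaves at the surface through the cAMP-activated channel Cftr and the calcium-activated channel Ano1, and in mouse airways the calcium-activated route is known to carry much of the secretion. Bicarbonate is handled by the exchanger pendrin (Slc26a4) and the cotransporter Nbce1 (Slc4a4). Slc5a8 encodes a sodium-coupled transporter of lactate and other monocarboxylates on the apical membrane. Clca proteins are secreted or membrane-bound regulators of calcium-activated chloride currents.

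Promoters are shown for Slc5a8 and Ano1, whose signals fell after injury in wild-type tracheas, and for Slc26a4. Slc26a4 was not called, but its levels, like those of Slc5a8, did not overlap between the uninjured groups, as for 2.51% of all tested probes. The table of RefSeq promoters used here (GRCm38.p6, 300 bases around the transcript start) was matched for 8 of the 10 genes. Capitals mark each GGGCGG, the core of a GC box, and each TATAAA, the core of a TATA box, both searched on either strand, and the sequences run 5′ to 3′ on the strand of the gene.
Slc5a8, chr10:88885742-88886041, plus strand: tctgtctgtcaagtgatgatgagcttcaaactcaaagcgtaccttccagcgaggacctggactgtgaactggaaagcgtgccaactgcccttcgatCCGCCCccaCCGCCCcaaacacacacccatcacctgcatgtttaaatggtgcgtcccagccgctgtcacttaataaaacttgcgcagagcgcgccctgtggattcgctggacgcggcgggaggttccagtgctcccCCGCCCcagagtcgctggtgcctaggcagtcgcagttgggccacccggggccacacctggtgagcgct
Ano1, chr7:144738524-144738823, minus strand: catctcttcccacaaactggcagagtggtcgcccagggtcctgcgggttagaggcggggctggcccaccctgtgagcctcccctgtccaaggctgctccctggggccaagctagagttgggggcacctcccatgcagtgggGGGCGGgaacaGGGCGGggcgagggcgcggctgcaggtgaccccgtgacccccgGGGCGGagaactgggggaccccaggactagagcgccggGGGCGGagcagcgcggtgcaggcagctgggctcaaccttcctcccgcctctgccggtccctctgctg
Slc26a4, chr12:31559935-31560234, minus strand: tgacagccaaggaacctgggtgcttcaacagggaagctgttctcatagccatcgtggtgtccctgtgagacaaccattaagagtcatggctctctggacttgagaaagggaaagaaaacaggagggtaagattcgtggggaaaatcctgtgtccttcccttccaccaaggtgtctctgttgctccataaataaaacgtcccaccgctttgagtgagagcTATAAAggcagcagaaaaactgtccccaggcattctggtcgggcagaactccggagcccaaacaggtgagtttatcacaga
The Slc5a8 window held 3 and the Ano1 window 4 GC box cores, whereas the Slc26a4 window held 0 of them and 1 TATAAA. For comparison, GGGCGG occurred in 35.7% and TATAAA in 13.6% of all 32851 promoter windows of the same length. CCAAT, found on either strand in 37.4% of the windows, did not occur in the 3 shown. GC bases made up 60.7% of the Slc5a8 window, 71.7% of the Ano1 window and 50% of the Slc26a4 window, beside a median of 52.7% over all windows.

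Each array gave an intensity per probe, and levels below are log2 intensities relative to the 75th percentile of the same array, so that a value of 0 is a probe as bright as that percentile. Levels are compared between groups for 1 probe, never between probes. Summed levels of marker genes, given further below, add the intensities of several probes, so that the brightest weigh most. The share of spots well above background was between 57.5% and 67.8% over the arrays. Each of the 5 slides carried 1 array of every group, all numbered alike, and scanning took 2 days (3 slides on the first and 2 on the second). Loss of the secretory cell marker Scgb1a1 marked the injury: its level was 7.30 ± 0.39 (SD, n = 5) in uninjured and -0.61 ± 0.50 (SD, n = 5) in injured wild-type tracheas. In the injured Myd88KO group it lay between -0.84 and 4.79 over the 4 arrays with a usable spot. An injury score, which is the size of an array's departure from the uninjured mean of its genotype along the wild-type injury response over the 1372 probes called there (0 for none, 1 for the wild-type average, with the array itself left out of the averages), was between 0.85 and 1.1 in injured wild-type tracheas. The scores of injured Myd88KO replicates 1 to 5 were 0.34, 0.97, 0.5, 0.97 and -0.027. Replicate 5 thus lay within the range of the 10 uninjured arrays, which ran from -0.073 to 0.12, and it is left out as an alternative below. Its array also had the lowest share of spots well above background, 57.5%, and no usable Scgb1a1 spot. The score measures likeness to the wild-type response, and whether replicate 5 had less injury, a different response or a weaker array was not tested. The probes of the score include those of Slc5a8 and Ano1, so that the choice of this array is not independent of them. The Myd88 probe itself gave 2.08 ± 0.14 (SD, n = 5) in uninjured wild-type and 1.86 ± 0.17 (SD, n = 5) in uninjured Myd88KO tracheas, 2.65 ± 0.18 (SD, n = 5) after injury in wild-type and 1.89 ± 0.26 (SD, n = 5) after injury in Myd88KO tracheas. Whether this probe falls inside the deletion was not given in the sources used here, so it does not check the genotype.

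After injury in wild-type tracheas, 2 of the 10 tested member probes fell at an adjusted p under 0.01 (limma with Benjamini-Hochberg adjustment over all tested probes), and they were Slc5a8 and Ano1. Over all 26063 tested probes 5.26% were called in this comparison, and 2.03% were called lower. The difference was below 0 for 9 of the 10 member probes, with a median of -0.69 on the log2 scale, against a median of 0.00 over all tested probes. The groups did not overlap for 3 member probes (Slc5a8, Ano1 and Slc12a2), as for 12.6% of all tested probes. After injury in Myd88KO tracheas 0 of the 10 member probes were called by limma, where 0.376% of all tested probes (98) were called. That share rested on single arrays: it was 4.12% (1075 probes) without injured replicate 5, and between 6 and 107 probes without any other array. With array weights it was 7.29% (1901 probes). It was 0 of all tested probes with the methods' one-way test, rebuilt here on the 2 groups compared with this scaling and filter. The study, with its own software, did report transcripts that differed in this comparison. Of the member probes 5 had an unadjusted p under 0.05, as had 19.5% of all tested probes. The 5 were Slc5a8, Scnn1a probe 2, Scnn1b, Slc26a4 and Clca2.

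**Figure D1:**
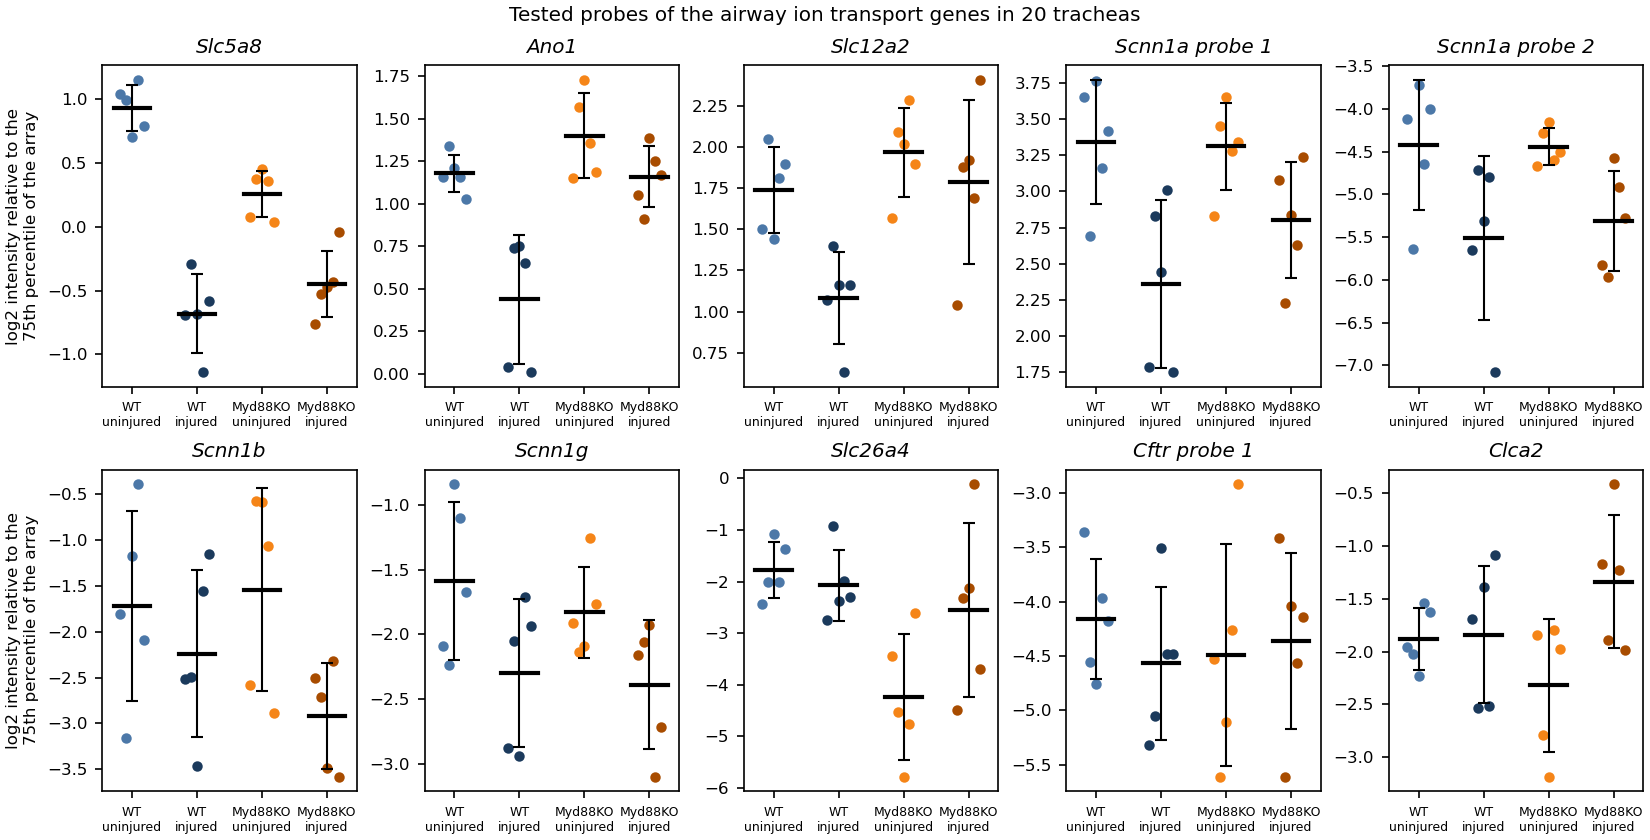
Log2 intensity relative to the 75th percentile of the array for the 10 tested member probes, 1 panel per probe, in the 4 groups of 5 tracheas; points are tracheas, horizontal bars means and error bars SD. Slc5a8 falls from a mean of 0.93 to -0.68 after injury in wild-type tracheas and from 0.26 to -0.45 in Myd88KO tracheas, and Slc26a4 is lower in every uninjured Myd88KO trachea than in any uninjured wild-type trachea.

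Slc5a8, the apical lactate transporter, was measured by 1 probe at chr10:88487915-88487974 (positions as given in the array files, whose genome build is not stated). Its levels in uninjured wild-type replicates 1 to 5 were 1.04, 0.99, 0.70, 1.15 and 0.79, and in injured wild-type replicates they were -0.69, -0.29, -0.68, -1.14 and -0.58. All injured wild-type tracheas lay below all uninjured ones. The mean fell from 0.93 to -0.68, a difference of -1.61 ± 0.16 (SE) on the log2 scale or 3.05-fold (95% interval -1.95 to -1.27, adjusted p = 2.76e-05). The probe was lower after injury on 5 of 5 slides, by -1.65 on the first scan day and -1.55 on the second, and it was called under each of the 32 alternative settings, with adjusted p between 4.28e-07 and 0.00148. In Myd88KO tracheas the levels were 0.08, 0.37, 0.45, 0.36 and 0.04 without injury and -0.76, -0.53, -0.47, -0.43 and -0.04 after it. These groups did not overlap either, as was so for 1 of the 10 member probes and for 3.45% of all tested probes. The difference was -0.71 ± 0.16 (SE) on the log2 scale, 1.63-fold, with an adjusted p of 0.026, which missed the threshold. Without injured Myd88KO replicate 5, the injured trachea with the lowest injury score, the difference was -0.81 and the adjusted p 0.00363. The probe was then called, as 4.12% of all tested probes were.

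Uninjured Myd88KO tracheas also had less Slc5a8 signal than uninjured wild-type tracheas. The highest uninjured Myd88KO level, 0.45, lay below the lowest uninjured wild-type level, 0.70. The difference was -0.67 ± 0.16 (SE) on the log2 scale, 1.6-fold, with an unadjusted p of 0.000546 and an adjusted p of 0.0836 (limma), and it was negative on 5 of 5 slides. After injury the genotypes overlapped, with a difference of 0.23 (95% interval -0.11 to 0.57), or 0.13 without injured Myd88KO replicate 5. The fall after injury was therefore 0.90 ± 0.23 (SE) smaller in Myd88KO than in wild-type tracheas on the log2 scale, with an unadjusted p of 0.000906 and an adjusted p of 0.39 for the difference between the responses, which was 0.80 (adjusted p = 0.393) without injured Myd88KO replicate 5.

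Ano1, the calcium-activated chloride channel, was measured by 1 probe at chr7:141014348-141014407. Uninjured wild-type tracheas gave levels of 1.16, 1.34, 1.21, 1.16 and 1.03, and injured ones 0.04, 0.74, 0.75, 0.65 and 0.01. All injured wild-type tracheas were below all uninjured ones, and replicates 1 and 5 were far below the other three. The difference was -0.74 ± 0.17 (SE) on the log2 scale, 1.67-fold (95% interval -1.10 to -0.39, adjusted p = 0.00714). It was negative on 5 of 5 slides, at -0.53 on the first scan day and -1.07 on the second, where replicates 1 and 5 were scanned. The call was less stable than that of Slc5a8: it held under 20 of 32 alternatives, with adjusted p between 0.0012 and 0.0338, and it was lost without any 1 of the uninjured wild-type arrays, without injured wild-type replicate 1 or 5, and without uninjured Myd88KO replicate 4.

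In Myd88KO tracheas Ano1 was at 1.15, 1.57, 1.73, 1.36 and 1.19 without injury and at 1.05, 0.91, 1.39, 1.25 and 1.17 after it. These groups overlapped, and the difference was -0.24 (95% interval -0.60 to 0.11, adjusted p = 0.456), or -0.25 without injured replicate 5. Among injured tracheas, every Myd88KO level (0.91 to 1.39) was above every wild-type level (0.01 to 0.75). Ano1 was the 1 tested member probe of 10 with no overlap between the injured groups, as were 1.96% of all tested probes. The difference was 0.72 ± 0.17 (SE) on the log2 scale, 1.65-fold, with an adjusted p of 0.0569, and it was positive on 5 of 5 slides. With the scan day as a block the adjusted p was 0.00562, and without injured Myd88KO replicate 5 it was 0.124. The difference between the injury responses was 0.50 (95% interval -0.00 to 1.00, adjusted p = 0.482).

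Slc12a2, the basolateral sodium, potassium and chloride cotransporter that loads the cell with chloride, also had its lowest mean in injured wild-type tracheas but was not called. Its levels in uninjured wild-type tracheas were 1.50, 2.05, 1.44, 1.81 and 1.90, and after injury 1.07, 1.40, 1.16, 0.63 and 1.16, without overlap. The difference was -0.66 ± 0.21 (SE) on the log2 scale, 1.58-fold, with an adjusted p of 0.0507. In Myd88KO tracheas the levels ran from 1.57 to 2.29 without injury and from 1.04 to 2.41 after it, a difference of -0.19 (95% interval -0.64 to 0.26), or -0.34 without injured replicate 5. Injured Myd88KO tracheas were 0.70 above injured wild-type tracheas (95% interval 0.25 to 1.15, adjusted p = 0.167), and 0.55 above them without injured Myd88KO replicate 5, which held the highest level.

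Cftr, the cAMP-activated channel mutated in cystic fibrosis, was near background. Its brighter probe, at chr6:18262943-18263002 and printed 10 times on each array, was well above background on 15 of 20 arrays, and the second probe, at chr6:18208199-18208258, on 0 of 20. The brighter probe ranged from -4.76 to -3.36 in uninjured and from -5.32 to -3.51 in injured wild-type tracheas, and from -5.61 to -2.92 in uninjured and -5.61 to -3.42 in injured Myd88KO tracheas. The groups overlapped in each comparison. The injury difference was -0.40 (95% interval -1.37 to 0.56) in wild-type and 0.13 (95% interval -0.84 to 1.10) in Myd88KO tracheas (0.08 without injured replicate 5). Changes within these intervals, in either direction, are not excluded.

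**Figure D2:**
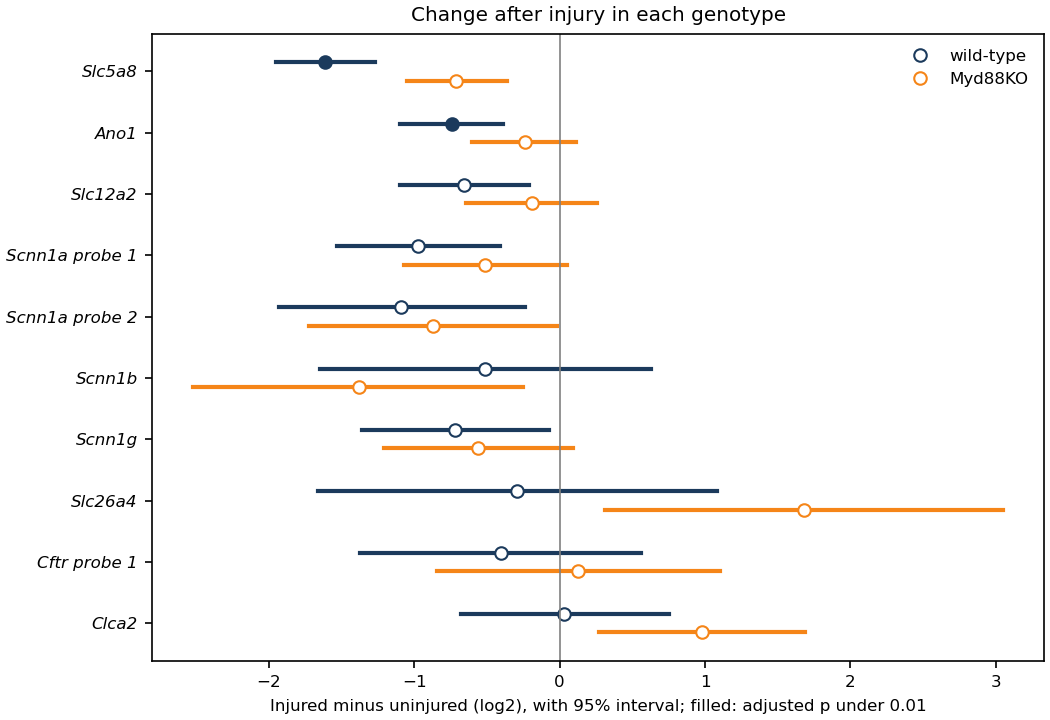
Injured minus uninjured log2 level for each tested member probe, with 95% intervals from limma, in wild-type (blue) and Myd88KO (orange) tracheas; filled points had an adjusted p under 0.01. Only Slc5a8 (-1.61) and Ano1 (-0.74) in wild-type tracheas are filled, and Slc26a4 in Myd88KO tracheas has the largest positive difference, 1.68, with an interval from 0.31 to 3.05.

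The probes of the 3 ENaC subunits were all lower after injury on average, and 0 of the 4 probes were called. Scnn1a, the pore-forming alpha subunit, had 2 tested probes. The brighter, at chr6:125371128-125371187, gave 3.65, 2.69, 3.76, 3.16 and 3.42 in uninjured and 1.79, 2.83, 2.44, 3.01 and 1.75 in injured wild-type tracheas. The groups overlapped, with the lowest values in injured replicates 1 and 5. The difference was -0.97 ± 0.27 (SE) on the log2 scale, 1.96-fold, with an adjusted p of 0.0212, and it was -0.45 on the first scan day and -1.76 on the second. The dimmer probe, well above background on 11 of 20 arrays, differed by -1.09 ± 0.41 (SE) with an adjusted p of 0.0866, in the direction of the brighter. In Myd88KO tracheas the brighter probe differed by -0.51 (adjusted p = 0.306) and the dimmer by -0.87 (adjusted p = 0.245), and by -0.62 and -0.88 without injured replicate 5. The dimmer probe depended on the background correction: with normexp it differed by -0.28 (adjusted p = 0.291) in wild-type and by -0.25 in Myd88KO tracheas.

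Scnn1b and Scnn1g, the beta and gamma subunits, lie next to each other on chromosome 7, and their probes were at chr7:117842335-117842394 and chr7:117690298-117690357. Scnn1b varied widely among uninjured tracheas, from -3.16 to -0.39 in wild-type and from -2.89 to -0.57 in Myd88KO. Its levels in injured Myd88KO tracheas were between -3.58 and -2.32, a difference from uninjured of -1.38 ± 0.54 (SE) with an adjusted p of 0.168. In wild-type tracheas the difference was -0.51 (95% interval -1.65 to 0.63), and between -0.87 and -0.18 when single arrays were left out. Scnn1g differed by -0.72 ± 0.31 (SE, adjusted p = 0.141) in wild-type and by -0.56 ± 0.31 (SE, adjusted p = 0.333) in Myd88KO tracheas. Without injured Myd88KO replicate 5 the Myd88KO differences were -1.22 for Scnn1b and -0.48 for Scnn1g. Between genotypes the 4 ENaC probes differed by -0.25 to 0.18 without injury, and the groups overlapped for each of them.

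Slc26a4, the chloride and bicarbonate exchanger pendrin, was the tested member with the widest range over the 20 tracheas, and it was measured by a probe at chr12:29359649-29359708. Uninjured wild-type tracheas gave -2.43, -2.01, -1.08, -2.0 and -1.37, and uninjured Myd88KO tracheas -3.45, -4.53, -5.78, -4.77 and -2.61. All Myd88KO levels were below all wild-type levels, and the probe was well above background on 4 of the 5 Myd88KO arrays. The difference was -2.45 ± 0.66 (SE) on the log2 scale, 5.46-fold (95% interval -3.82 to -1.08), with an unadjusted p of 0.00137 and an adjusted p of 0.153. It was negative on 5 of 5 slides, at -3.33 on the first scan day and -1.13 on the second. The difference ranged from -2.85 to -1.31 over the alternatives, none of which called it. The smallest, -1.31, came with the normexp background (limma, adjusted p = 0.225), so that its size depended on the background correction. Between the uninjured groups 0 of the 10 member probes were called by limma and by the methods' one-way test, where limma called 0.384% of all tested probes. Of the member probes 2, Slc5a8 and Slc26a4, had an unadjusted p under 0.05, as had 5.59% of all tested probes, and the same 2 had no overlap between the groups, as had 2.51% of all tested probes.

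After injury the Slc26a4 levels were -2.75, -0.93, -2.38, -1.99 and -2.30 in wild-type and -4.49, -2.32, -2.13, -0.11 and -3.69 in Myd88KO tracheas. The wild-type difference was -0.29 (95% interval -1.66 to 1.08). The Myd88KO difference was 1.68 ± 0.66 (SE, adjusted p = 0.165), and it ran in opposite directions on the scan days, 3.50 higher on the first (3 tracheas a group) and -1.06 on the second (2 a group). Without injured Myd88KO replicate 5 it was 1.96, with an adjusted p of 0.068. Weighting the arrays by their quality gave 2.63 with an adjusted p of 0.00418, the normexp background gave 0.94 with an adjusted p of 0.183, and leaving out single arrays gave 1.07 to 2.16. Pendrin is also a gene of the thyroid, which lies on the trachea, and 5 of 6 thyroid marker genes were tested. The log2 of their summed level in uninjured replicates 1 to 5 was 8.02, 6.57, 7.08, 8.48 and 8.29 in wild-type and 7.51, 8.55, 8.89, 8.22 and 6.44 in Myd88KO tracheas. After injury it was 7.86, 7.43, 6.96, 8.12 and 8.65 in wild-type and 7.56, 7.31, 6.59, 7.77 and 6.96 in Myd88KO tracheas. In uninjured Myd88KO tracheas it was highest in replicates 2, 3 and 4, in which Slc26a4 was lowest. These were the arrays of the first scan day, so that this pattern and the scan day cannot be told apart. In injured Myd88KO tracheas replicate 4 held the highest value of both. In each wild-type group the highest sum and the highest Slc26a4 level fell in different replicates. Of the 5 thyroid genes 0 were called in any comparison by limma, and their part in the Slc26a4 signal was not tested.

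**Figure D3:**
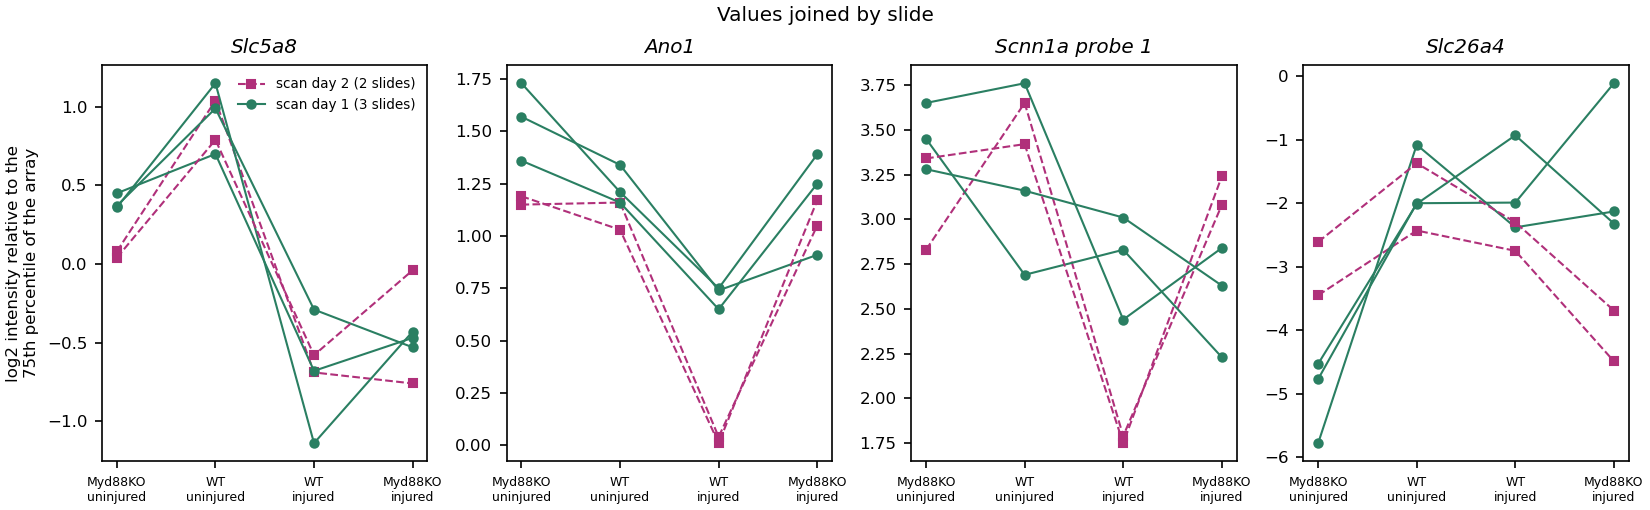
Log2 level of 4 member probes with the arrays of each slide joined by a line, scan day 1 in green circles (3 slides) and scan day 2 in purple squares (2 slides). Slc5a8 falls after injury on every slide in both genotypes, Ano1 and Scnn1a probe 1 reach their lowest levels in the injured wild-type tracheas of scan day 2, and Slc26a4 in injured Myd88KO tracheas spans -4.49 to -0.11.

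Slc4a4, the sodium bicarbonate cotransporter, was not measurable here. Of its 3 probes, 1 was well above background on 4 of 20 arrays, which were 1 uninjured wild-type, 2 uninjured Myd88KO and 1 injured Myd88KO array, and the others on 0 of 20.

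The probe named Clca2 on the array (chr3:144690604-144690663) matches a transcript that RefSeq now calls Clca3a2, a mouse gene closely related to Clca3a1, and signal from the pair may not be fully separable. Its level was between -2.23 and -1.54 in uninjured and between -2.53 and -1.09 in injured wild-type tracheas, a difference of 0.03 (95% interval -0.68 to 0.75). In Myd88KO tracheas it was between -3.18 and -1.80 without injury and between -1.99 and -0.42 after it, a difference of 0.98 ± 0.34 (SE, adjusted p = 0.119), or 1.14 (adjusted p = 0.0413) without injured replicate 5. The Clca3a1 probe differed by -0.02 in wild-type and by 0.84 in Myd88KO tracheas, and neither was called. The gene that RefSeq now calls Clca2 is on the array as Clca5, and its probe was well above background on 2 of 20 arrays.

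When the genotypes were compared after injury, 0 of the 10 tested member probes were called by limma, where 0.380% of all tested probes were called. Of these member probes 2 (Ano1 and Slc12a2) had an unadjusted p under 0.05, as had 12.5% of all tested probes. The injury responses of the genotypes differed at the threshold for 0 of 10 tested member probes and 0% of all tested probes. There 2 member probes (Slc5a8 and Slc26a4) had an unadjusted p under 0.05, as had 10.4% of all tested probes. The injury comparisons share their uninjured or injured groups with the genotype comparisons, so that these are not separate observations.

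Other genes of airway ion transport were grouped in 4 lists, with the brightest tested probe taken for each gene. None of the 12 pump and potassium channel genes, which keep up the driving force for chloride and sodium, was called in any comparison by limma. After injury their differences ran from -0.74 to 0.58 in wild-type and from -1.21 to 0.23 in Myd88KO tracheas, with medians of 0.06 and -0.15 against 0.00 and -0.07 over all tested probes, and 2 genes in each genotype had an unadjusted p under 0.05, where 26.4% of all tested probes had one in wild-type and 19.5% in Myd88KO tracheas. The sodium pump subunit Atp1b1 differed by -0.74 ± 0.23 (SE, adjusted p = 0.0439) in wild-type and by -0.81 ± 0.23 (SE, adjusted p = 0.062) in Myd88KO tracheas. Atp1b1 was called in wild-type tracheas once arrays were weighted or the scan day was blocked, and in Myd88KO tracheas it differed by -1.01 (adjusted p = 0.005) without injured replicate 5.

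Of 24 other chloride and bicarbonate genes 20 were tested, and 1, Clca1, was called. It was called after injury in wild-type tracheas and between the injured groups, where 5.26% and 0.380% of all tested probes were called. Clca1 (gob-5, written Clca3 on the array) encodes a protein secreted with mucus by goblet cells. Its levels were 3.17 to 5.62 in uninjured and -0.54 to 2.85 in injured wild-type tracheas, without overlap, and it fell by 3.34 ± 0.59 (SE) on the log2 scale (adjusted p = 0.0016). In Myd88KO tracheas it was at 4.63 to 6.63 without injury and 4.05 to 6.39 after it, a difference of -0.36 (adjusted p = 0.791). Injured Myd88KO tracheas were higher than injured wild-type tracheas by 4.21 ± 0.59 (SE, adjusted p = 0.000484), while the difference between the injury responses, 2.98 ± 0.84 (SE), had an adjusted p of 0.391. Without injured Myd88KO replicate 5 the last 3 of these differences were -0.28, 4.28 and 3.06. The methods' one-way test called Clca1 in neither comparison, and a fit of the injured groups alone did not call it between them. The median difference of the list after injury was 0.02 in wild-type and -0.11 in Myd88KO tracheas.

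Of 21 regulators of ENaC and CFTR 20 were tested. After injury 2 were called in wild-type and 1 in Myd88KO tracheas, where 5.26% and 0.376% of all tested probes were called. Bpifa1 (SPLUNC1), a secreted protein that inhibits ENaC at the airway surface, fell after injury in both genotypes, by 2.24 ± 0.31 (SE, adjusted p = 0.000372) on the log2 scale in wild-type and by 2.36 ± 0.33 (SE, adjusted p = 0.00287) in Myd88KO tracheas, where 1 injured array had no usable spot. Stk39 (SPAK), a kinase that activates Nkcc1, rose by 0.88 ± 0.19 (SE, adjusted p = 0.00541) in wild-type tracheas and differed by 0.68 ± 0.19 (SE, adjusted p = 0.0591) in Myd88KO tracheas. The ENaC-cleaving protease Tmprss4 was not called, with differences of 1.16 ± 0.36 (SE) in wild-type (adjusted p = 0.0399) and 1.21 ± 0.36 (SE) in Myd88KO tracheas (adjusted p = 0.0707). The Myd88KO call was lost, or the count raised to 3, by leaving out single arrays. The count was 0 without uninjured replicate 3 or injured replicates 2, 3 or 4. It was 3 without injured replicate 5, where 4.12% of all tested probes were called. With the Myd88KO groups fitted alone and with the methods' one-way test it was 0, as was the count over all tested probes. The wild-type count of 2 fell to 1 without 7 of the wild-type arrays.

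Ionocytes are rare airway cells rich in Cftr and in a proton pump, and of 10 ionocyte genes 6 were tested. Foxi1, the transcription factor that specifies them, was well above background on 0 of 20 arrays. In injured wild-type tracheas 3 of the 6 were called lower, as were 2.03% of all tested probes. Atp6v1c2 fell by 3.25 ± 0.31 (SE, adjusted p = 1.6e-05) and Atp6v1b1 by 2.64 ± 0.40 (SE, adjusted p = 0.000514), both subunits of the proton pump. Ascl3, a transcription factor, fell by 1.87 ± 0.39 (SE, adjusted p = 0.00456). Of the 6 genes 4 were lower, and the highest difference was 0.37. Atp6v1b1 and Ascl3 were dim in injured wild-type tracheas, with means of -4.65 and -4.01. The lowest probes well above background on those arrays lay between -5.26 and -4.859. In Myd88KO tracheas Atp6v1c2 differed by -1.38 (adjusted p = 0.0222), Atp6v1b1 by -1.83 (adjusted p = 0.0196) and Ascl3 by -0.90 (adjusted p = 0.216). There 0 of 6 were called, where 0.376% of all tested probes were called. Without injured replicate 5 these 3 were called, as were 4.12% of all tested probes. Atp6v1c2 was 1.91 ± 0.31 (SE) higher in injured Myd88KO than in injured wild-type tracheas (adjusted p = 0.00206), and 1.62 higher without injured Myd88KO replicate 5. The call was lost when the injured groups were fitted alone and with the methods' one-way test.

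**Figure D4:**
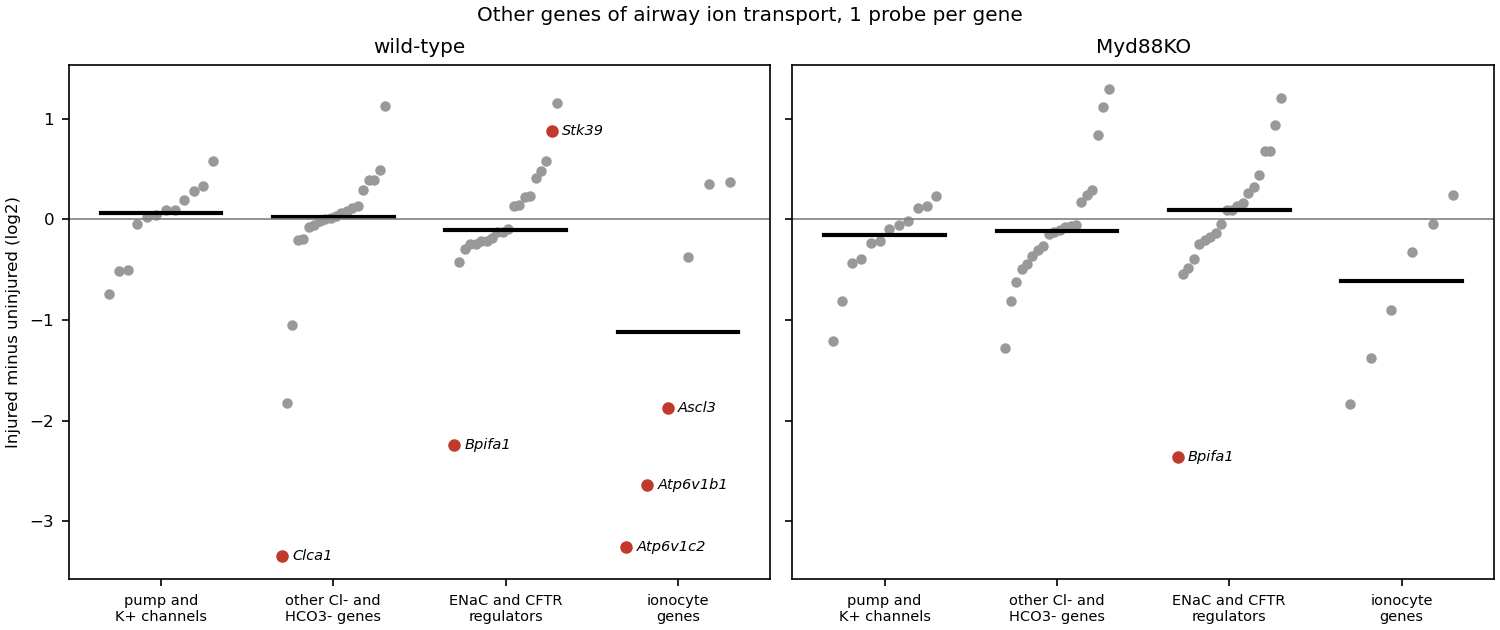
Injured minus uninjured log2 level of the other ion transport genes in 4 lists, for wild-type (left) and Myd88KO (right) tracheas, 1 point per gene at its brightest tested probe; red named points had an adjusted p under 0.01 and black bars are medians. Clca1, Bpifa1 and 3 ionocyte genes fall and Stk39 rises in wild-type tracheas, and Bpifa1 alone is red in Myd88KO tracheas.

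Markers of the cells that a trachea holds moved in the same comparisons. After injury in wild-type tracheas 5.26% of all tested probes were called, and 2.03% were called lower. There 2 of 9 ciliated cell genes (Dnah5 and Dnah9) and 2 of 8 secretory cell genes (Scgb1a1 and Scgb3a2) were called lower. Called higher were 5 of 8 proliferation genes and 2 of 8 tested myeloid genes. In Myd88KO tracheas, where 0.376% of all tested probes were called, Scgb1a1 fell and the proliferation gene Aurka rose. Of the gland, basal, thyroid, smooth muscle, skeletal muscle, adipocyte and cartilage genes 0 were called. The log2 summed level of the ciliated genes was 4.93 to 5.80 in uninjured and 2.42 to 5.68 in injured wild-type tracheas, 5.18 to 5.33 in uninjured and 2.93 to 7.05 in injured Myd88KO tracheas. It was lowest in injured wild-type replicates 1 and 5, at 2.42 and 2.69, the tracheas with the least signal of Ano1 and of Scnn1a probe 1. Both were scanned on the second day, unlike the other injured wild-type arrays, so that this match and the scan day cannot be told apart. Injured Myd88KO replicate 4 had nearly as low a sum, 2.93, with Ano1 at 1.25 and Scnn1a probe 1 at 2.63. The summed level of the secretory genes was 10.49 to 11.29 and 9.61 to 9.96 in uninjured and injured wild-type tracheas, and 10.63 to 11.31 and 9.66 to 10.88 in Myd88KO tracheas. The value of 10.88 was that of injured replicate 5, whose sum lacked Scgb1a1. The part of these shifts in cell markers in the differences of the members was not tested.

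The probes most like Slc5a8 over the 20 arrays were those of Sec14l2 (Pearson r = 0.92), Erich5 (r = 0.918) and the transcript AK021069 (r = 0.908), and those most like Ano1 were Isl1 (r = 0.895), Mmab (r = 0.887) and Bmpr1b (r = 0.886). Since the arrays fall into 4 groups, part of this likeness is the groups themselves: with group means removed the values were 0.395, 0.464 and 0.514 for Slc5a8 and 0.633, 0.776 and 0.741 for Ano1.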

How the data were processed

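Whole tracheas were profiled on one-colour Agilent whole mouse genome arrays, 1 array per trachea, in 4 groups of 5 biological replicates, and p values measure the spread between these tracheas. Deposited per array were Feature Extraction results, in which the authors' intensity of each spot was background-subtracted, detrended and not scaled between arrays, and a value table of these intensities, rounded (0.995 to 1.005 times the scanner value). The build behind the positions is not given in the sources used here. Control spots (1639 of 45018) and 1960 outlier values were left out, spots of 1 probe averaged on the log2 scale, and the 75th percentile of each array subtracted.

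Probes well above background on at least 10 of 20 arrays (26063 of 41174) were tested with limma 3.58.1 in R 4.3.3 (lmFit, contrasts, eBayes), all arrays together without a slide term, with Benjamini-Hochberg adjustment within each of 5 contrasts, and called at an adjusted p under 0.01. The script was tested on simulated data. Probes were renamed through RefSeq (GRCm38.p6, names only), by accession (22951), symbol (6659) or older symbol (3109), and 8455 kept the array name. Deviations from group means correlated between arrays of the same replicate number with r between -0.262 and 0.476 (median 0.242, 30 pairs). Between arrays of different numbers the median was -0.08 (120 pairs). The file headers place each number on 1 slide. Alternatives were the normexp background, quantile or median scaling, no or a stricter filter, slide or scan day as a block, array weights, a fit of the compared groups alone, the methods' one-way test, the value table, a threshold of 0.05, and leaving out each array. The one-way test was rebuilt on the compared groups with the scaling and filter used here, and it is not the study's own run. Members, lists and tests were chosen with earlier results of these data known. Named genes were the members, list genes that were called or needed to describe a count, Myd88, Scgb1a1, and the 3 tested probes most correlated with each called member. The number of arrays limits the precision.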

Additional observations from a re-analysis of the deposited data

Results flagged for a closer look

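Of the 40 sets of 5 tracheas (10 member probes in 4 groups), 0 had a highest or lowest trachea whose gap to its neighbour, as a share of the range, passed Dixon's critical value of 0.71, although chance gives about 1 in 20. For 0 tested member probes did the difference between the injury responses pass the threshold.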

How the results depend on the processing

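After injury in wild-type tracheas the count of member probes called was 2, where 5.26% of all tested probes were called. The shares of all tested probes are given in brackets below. The count was 1 (Slc5a8 alone) with median scaling (5.41%) and without the filter on dim probes (2.69%). It was also 1 with only the 2 groups compared (6.06%) and with the methods' one-way test (4.02%). At an adjusted p under 0.05 it was 3, with Scnn1a probe 1 (12.7%). With array weights it was 4, with Scnn1a probe 1 and Slc12a2 (9.97%). When single arrays were left out it was 1 to 2 (2.55% to 7.07%). In Myd88KO tracheas the count of 0 (0.376%) became 1 (Slc5a8) at an adjusted p under 0.05 (3.23%). It became 2 (Slc5a8 and Slc26a4) with array weights (7.29%). When single arrays were left out it was 0 to 1, and it was 1 without injured replicate 5 (4.12%). Between uninjured groups it became 1 (Slc5a8) with array weights (0.691%), and between injured groups 1 (Ano1) with the scan day as a block (0.522%). With the slide as a replicate block the counts were 2, 0, 0, 0 and 0 in the order of the report, and this block changed no call of a member or a pathway list. Arrays with the same number were more alike in the median than others (r of 0.242 against -0.08), but did not all deviate together. The numbers are therefore read as slides and not as pairs of animals. Of 826 member differences recomputed, 10 turned their sign, none of them called: Cftr probe 1 in Myd88KO tracheas (-0.06 with the normexp background, and -0.15 to 0.52 when single arrays were left out), Clca2 in wild-type tracheas (-0.16 to 0.20) and Slc12a2 in Myd88KO tracheas (-0.34 to 0.00). These 826 did not cover every comparison of every member probe. The threshold, the filters, the blocks, the fit of the compared groups alone and the one-way test leave a difference unchanged. So does leaving out an array of a group not compared, so that the low number of sign changes was partly fixed in advance. Dim probes (Cftr, Slc4a4, Scnn1a probe 2, and Slc26a4 in uninjured Myd88KO tracheas) were limited by signal over background. The cause of these changes was not tested.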
